A study of Mus musculus with 12 samples.

Results

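Antioxidant enzymes were described in single muscle fibers of young and aged mice through 10 genes, *Sod1*, *Sod2*, *Cat*, *Gpx1*, *Gpx4*, *Prdx3*, *Prdx5*, *Txn2*, *Nqo1* and *Hmox1*, which were taken from the deposited values by gene symbol. All 10 were found among the 55367 symbols of the files, and all 10 were among the 14429 protein-coding and mitochondrially-encoded genes that reached a mean of 0.02 TPM (reads scaled for transcript length and then to the same total per sample) in at least 1 group and were tested. By the main place of the protein, 4 were grouped as mitochondrial (*Sod2*, *Prdx3*, *Prdx5* and *Txn2*) and 5 as non-mitochondrial (*Sod1*, *Gpx1* and *Nqo1* of the cytosol, *Cat* of the peroxisome and *Hmox1* of the endoplasmic reticulum). *Gpx4*, whose single gene gives a mitochondrial and a cytosolic form, was put in neither set, and the proteins of *Prdx5* and *Gpx1* are also known outside their main place.

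The fibers were from the extensor digitorum longus (EDL), a fast muscle of the lower leg, of C57BL/6J mice that carried no transgene named in the sources. There were 3 groups with 4 samples each. Young fibers came from mice of 3–4 months. Aged fibers came from mice of 26–28 months and were stained with Fluo-4, a fluorescent indicator of calcium, and then picked apart under a stereomicroscope into Fluo-4 normal and Fluo-4 abnormal fibers, the latter with aberrantly bright staining. Young mice were purchased and aged mice came from another colony, so age and source cannot be told apart. Neither the labels nor the methods say that the samples of a group were separate mice, so the p-values measure the spread between these samples, which may be technical.

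Mitochondria release superoxide as a by-product of respiration. Superoxide dismutases turn it into hydrogen peroxide, *Sod2* inside mitochondria and *Sod1* in the cytosol. Peroxiredoxins, glutathione peroxidases and catalase remove the peroxide, and thioredoxins and glutathione hand the peroxidases their electrons, which come in the end from NADPH. *Nqo1* and *Hmox1* are classical targets of NRF2 (gene *Nfe2l2*), a transcription factor that KEAP1 holds back until oxidants or electrophiles modify it.

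The windows upstream of the start sites of *Sod2*, *Prdx3* and *Nqo1* are shown because they were the mitochondrial enzymes and the NRF2-linked enzyme that passed the test in at least 1 comparison. Each is 250 bases long, reads 5′ to 3′ on the strand of the gene and ends at the base before the RefSeq start site (build GRCm38.p6). Capitals mark the letters GGGCGG of the GC box, on either strand, the only 1 of 4 motifs searched that was found in these windows.
*Sod2*, chr17:13007589-13007838, plus strand: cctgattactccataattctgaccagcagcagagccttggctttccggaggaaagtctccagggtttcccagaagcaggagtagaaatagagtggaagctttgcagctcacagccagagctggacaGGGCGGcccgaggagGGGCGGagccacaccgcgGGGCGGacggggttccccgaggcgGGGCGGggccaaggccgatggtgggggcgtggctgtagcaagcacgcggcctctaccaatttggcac
*Prdx3*, chr19:60874539-60874788, minus strand: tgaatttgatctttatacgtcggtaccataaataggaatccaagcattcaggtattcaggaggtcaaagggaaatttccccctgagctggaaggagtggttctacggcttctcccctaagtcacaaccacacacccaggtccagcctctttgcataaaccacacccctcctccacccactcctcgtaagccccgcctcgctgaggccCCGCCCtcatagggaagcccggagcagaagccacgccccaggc
*Nqo1*, chr8:107403206-107403455, minus strand: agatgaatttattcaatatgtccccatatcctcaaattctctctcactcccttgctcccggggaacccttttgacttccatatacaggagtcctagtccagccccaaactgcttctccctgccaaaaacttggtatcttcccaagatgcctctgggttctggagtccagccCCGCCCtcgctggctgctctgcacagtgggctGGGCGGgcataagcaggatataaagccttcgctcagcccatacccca
The *Sod2* window held 4 GC boxes, the *Nqo1* window 2 and the *Prdx3* window 1. Of the 12 windows of the members, 10 had a GC box, against 32.7% of all 32851 windows of the same length. *Gpx4* gave 4 of the 12, and the windows of its start sites 2 and 3 overlap and hold the same GC boxes. Counted by gene, 8 of the 9 members with a window in the RefSeq table had a GC box in at least 1 window, without a share by gene over all genes to compare. *Hmox1* had no window there and was not searched. The antioxidant response element core TGACNNNGC, the letters bound by NRF2, was in 10.2% of all windows and, among the members, only in that of *Sod1*, 56 to 48 bases before the start. The core GCATGCGC of the NRF1 site was in 2.26% of all windows and in 1 window of *Gpx4*, and the element TNAAGGTCA of estrogen-related receptors was in 1.14% and in 0 of the 12 windows of the members. These matches describe letters in short windows and say nothing on binding. Sites more than 250 bases upstream were not searched, so a gene without a match may still have one there.

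The files hold TPM, which correct for depth and transcript length and have the same total in every sample, so the read depth is unknown and no counting interval was given. Levels were compared as log2(TPM + 1), a scale on which the change of a low gene is understated, in 1 limma fit of the 3 groups, and a gene was called at an adjusted p-value under 0.05 (Benjamini-Hochberg). Muscle genes dominated all samples, with *Acta1* at 34220 to 47400 TPM. *Myh4*, the myosin of type IIb fibers, made up 96.88 to 98.55% of the myosin heavy chain TPM in the young, 93.7 to 99.2% in the Fluo-4 normal and 98.9 to 99.7% in the Fluo-4 abnormal group. Mitochondrially-encoded genes held 7.35 to 8.01%, 8.75 to 10.9% and 4.75 to 6.92% of the TPM, in the same order. The median change of all 14429 genes was 0.10 (log2) in Fluo-4 abnormal against Fluo-4 normal fibers, 0.07 in Fluo-4 abnormal against young and -0.02 in Fluo-4 normal against young, and each became 0 with TMM-type scaling factors. A filter of 5 TPM in at least 1 group mean kept 6348 genes. Their medians, without these factors, were 0.20, 0.12 and -0.07 in the same order.

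*Gpx4*, the enzyme that reduces lipid peroxides in membranes, had the highest level of the 10 genes in each group, with 856 ± 57.2 TPM (SD, n = 4) in young, 1006 ± 54.9 in Fluo-4 normal and 1116 ± 91.3 in Fluo-4 abnormal fibers. *Prdx3* and *Sod2* came next in all 3 groups, and their ranges overlapped in each. *Txn2* lay below *Sod2* without overlap in young and Fluo-4 normal fibers. In the Fluo-4 abnormal fibers *Gpx1* was between them in mean level, and its range overlapped with that of both. *Prdx5*, *Sod1* and *Gpx1* formed a middle level of 131 to 191 TPM in group means. *Cat*, *Nqo1* and *Hmox1* were lowest, from 13.2 to 43.4 TPM, and *Nqo1* moved past *Cat* in mean level in the Fluo-4 abnormal fibers, where their ranges overlapped.

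**Figure D1:**
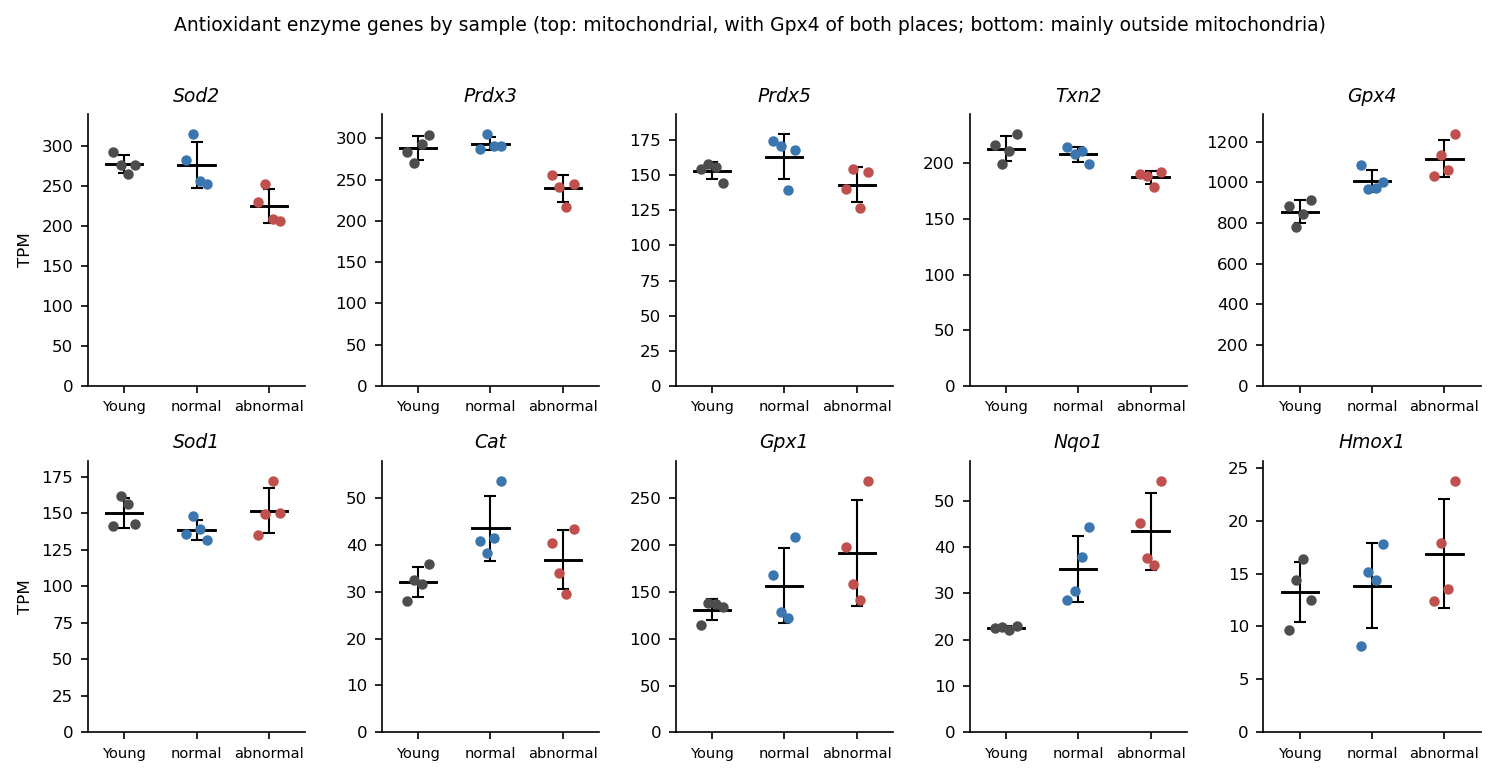
TPM (linear axis from 0) of the 10 antioxidant enzyme genes in each of the 12 samples, with mean and SD of the 4 samples of a group; normal and abnormal stand for Fluo-4 normal and Fluo-4 abnormal. In *Sod2*, *Prdx3* and *Txn2* the 4 Fluo-4 abnormal samples lie below the other 8, and in *Nqo1* and *Gpx4* the 4 young samples lie below the other 8.

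The mitochondrial enzymes were compared first between the fibers of aged mice. *Sod2*, the manganese superoxide dismutase, was at 283, 314, 255 and 252 TPM in the Fluo-4 normal and at 229.9, 252, 209 and 206 TPM in the Fluo-4 abnormal samples. The highest abnormal sample was just under the lowest normal one. *Sod2* fell by 0.30 on the log2 scale (SE 0.08, fold 0.813, adjusted p = 0.0391), and by 0.40 relative to the median of all genes. Between samples of the same number the difference was -0.30, -0.32, -0.29 and -0.29, so all 4 pairs had nearly the same size. The call was near the threshold. It was lost without any 1 of the 4 young samples, Fluo-4 normal 1 or 2, or Fluo-4 abnormal 1, 3 or 4, at adjusted p-values of 0.0504 to 0.102. It held with a replicate block, which takes sample numbers as pairs of the aged groups (adjusted p = 0.00225). With TMM-type factors it held too (-0.525, adjusted p = 0.00851), and in all it held in 9 of 22 alternatives.

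*Prdx3*, the peroxiredoxin of the mitochondrial matrix and a main remover of hydrogen peroxide there, was at 287, 305, 291 and 291 TPM in the Fluo-4 normal and 256, 241, 217 and 244 TPM in the abnormal samples. The groups were clearly apart, and *Prdx3* fell by 0.29 (SE 0.06, fold 0.816, adjusted p = 0.0125), or by 0.40 relative to the median of all genes. It kept the call when each of the 12 samples was left out in turn. With the *Myh4* share as a covariate the calls of both genes ended, at adjusted p-values of 0.129 for *Prdx3* and 0.285 for *Sod2*. That share was mostly higher in the Fluo-4 abnormal samples, so fiber type and Fluo-4 staining cannot be fully told apart. *Sod2* also shares 363 and 803 exonic bases with the non-coding genes *Gm36226* and *Gm64481* on the other strand, which unstranded libraries cannot separate.

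*Txn2*, the mitochondrial thioredoxin that recharges *Prdx3*, was at 214, 208, 211 and 199 TPM in the Fluo-4 normal and 190.3, 188, 179 and 192 TPM in the Fluo-4 abnormal samples. The ranges did not overlap, but the change of -0.15 (SE 0.06) missed the threshold (adjusted p = 0.110). *Txn2* passed with TMM-type factors, at -0.38 and an adjusted p of 0.0351. *Prdx5*, a further peroxiredoxin, was at 175, 171, 139 and 168 TPM against 140.2, 154, 127 and 152 TPM. The groups overlapped through Fluo-4 normal sample 3, and the change was -0.18 (SE 0.08, adjusted p = 0.184). With the replicate block (sample numbers as pairs of the aged groups), *Prdx5* passed the test (adjusted p = 0.0390), and the difference was negative in all 4 pairs. *Prdx5* shares 732 exonic bases with *Trmt112* on the other strand, a gene listed at 45.2 to 64.7 TPM, and *Txn2* 256 with the non-coding *Gm62018*.

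Against young fibers, the mitochondrial enzymes were at nearly the same level in the Fluo-4 normal fibers. The young samples held *Sod2* at 292, 276, 264 and 276 TPM and *Prdx3* at 284, 270.4, 293 and 304 TPM. The changes in Fluo-4 normal against young fibers were -0.01 for *Sod2* (95% interval -0.19 to 0.17), 0.03 for *Prdx3* (-0.11 to 0.16), -0.03 for *Txn2* (-0.15 to 0.09) and 0.08 for *Prdx5* (-0.10 to 0.26). In the Fluo-4 abnormal fibers, *Sod2* fell by 0.31 against young (SE 0.08, adjusted p = 0.0360) and *Prdx3* by 0.26 (SE 0.06, adjusted p = 0.0206), without overlap of the groups. *Txn2*, with young samples at 216, 199, 211 and 226 TPM, did not overlap either, at -0.18 and an adjusted p of 0.0623. *Prdx5* differed by -0.10 (adjusted p = 0.525). The *Sod2* call was lost without any 1 young sample or without Fluo-4 abnormal 3 or 4, and that of *Prdx3* without young 1, 3 or 4 or Fluo-4 abnormal 3, at adjusted p-values of up to 0.104 and 0.0717. Both calls also ended once the *Myh4* share was a covariate, at 0.094 and 0.0573. The 2 comparisons of the Fluo-4 abnormal fibers share these 4 samples.

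The 76 nuclear genes of oxidative phosphorylation gave a scale for these changes. All 76 had lower fitted levels in Fluo-4 abnormal than in Fluo-4 normal fibers, 59 of them called, with a median of -0.39. On the log2 scale, *Prdx3* minus the mean of the 76 genes was -1.64 ± 0.07 (SD, n = 4) in young, -1.69 ± 0.10 in Fluo-4 normal and -1.59 ± 0.04 in Fluo-4 abnormal fibers. For *Sod2* this difference was -1.70 ± 0.08, -1.78 ± 0.11 and -1.69 ± 0.13. The 3 groups overlapped for both genes. Within the 4 pairs of aged samples the Fluo-4 abnormal minus Fluo-4 normal value was above 0 in each, at 0.04 to 0.20 for *Prdx3* and 0.04 to 0.17 for *Sod2*. For *Txn2* it was -2.18 ± 0.08 in Fluo-4 normal and -1.94 ± 0.09 in Fluo-4 abnormal fibers, and the ranges of these groups did not overlap. *Gpx4* was at 0.08 ± 0.07 in Fluo-4 normal and 0.62 ± 0.18 in Fluo-4 abnormal fibers, without overlap. As the 76 genes fell, a gene that keeps its level rises on this scale. *Sod1* (-2.77 ± 0.11 and -2.245 ± 0.26) and *Nqo1* (-4.73 ± 0.37 and -4.04 ± 0.24) did not overlap between these groups either. Every member except *Cat*, with 3, was above 0 in all 4 pairs. These differences are given as descriptions, without a test.

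**Figure D2:**
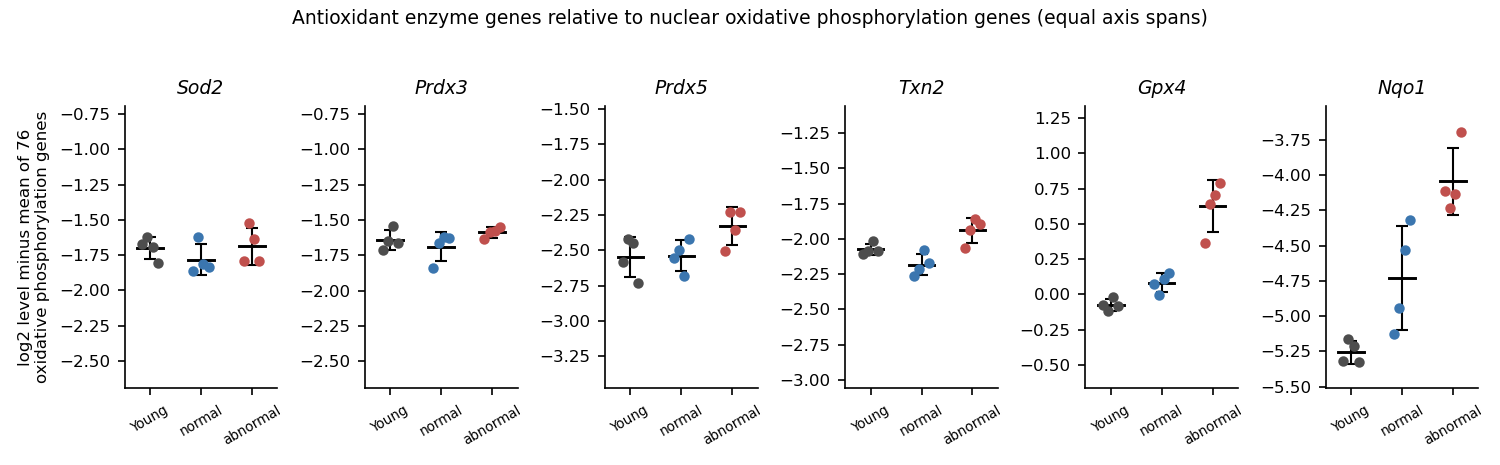
Log2(TPM + 1) of 6 genes minus the mean of 76 nuclear oxidative phosphorylation genes in the same sample, by group, with mean and SD (n = 4); every vertical axis spans the same range but has its own centre. The 3 groups overlap in *Sod2* and *Prdx3*, and *Gpx4* and *Nqo1* are highest in the Fluo-4 abnormal fibers.

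*Sod1*, the copper-zinc dismutase of the cytosol, was at 141, 162, 157 and 143 TPM in young, 136, 148, 139 and 132 TPM in Fluo-4 normal and 135, 149.9, 172 and 150.5 TPM in Fluo-4 abnormal samples. All groups overlapped. Its change was 0.13 in Fluo-4 abnormal against Fluo-4 normal (95% interval -0.04 to 0.29, adjusted p = 0.331), and it became -0.10 with TMM-type factors. Against young fibers it was 0.01 (-0.16 to 0.18). The TPM ratio of *Sod2* to *Sod1* was 1.85 ± 0.18 in young, 1.99 ± 0.14 in Fluo-4 normal and 1.49 ± 0.24 in Fluo-4 abnormal fibers. Its lowest Fluo-4 normal value, 1.84, was above the highest Fluo-4 abnormal value, 1.70. *Ccs*, the chaperone that loads copper onto SOD1, changed by 0.30 between the aged groups (adjusted p = 0.161). *Sod1* shares 4217 exonic bases with *Scaf4* on the other strand, a gene listed at 2.10 to 5.15 TPM, and the unstranded libraries cannot separate reads from that stretch.

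*Cat*, the peroxisomal catalase, was at 27.96, 32.4, 31.7 and 35.8 TPM in young, 40.7, 38.1, 41.4 and 53.5 TPM in Fluo-4 normal and 40.3, 33.98, 29.5 and 43.4 TPM in Fluo-4 abnormal samples. The Fluo-4 normal samples were all above the young ones, at a change of 0.42 (SE 0.13, adjusted p = 0.147) that missed the threshold. In Fluo-4 abnormal against Fluo-4 normal fibers *Cat* changed by -0.24 (adjusted p = 0.279), the only non-mitochondrial enzyme with a negative value in that fit. Under alternatives, *Sod1* (-0.10 with TMM-type factors) and *Gpx1* (-0.03 with the *Myh4* share) were also negative. The peroxisome list of 12 other genes had a median of 0.06 and no called gene in that comparison, with 0 of the 12 called also against young.

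*Gpx1*, the cytosolic glutathione peroxidase, was at 114, 138, 137 and 134 TPM in young, 168, 129, 122 and 209 TPM in Fluo-4 normal and 197, 158, 141 and 268 TPM in Fluo-4 abnormal samples. Every Fluo-4 abnormal sample lay above the young ones, and the aged groups overlapped widely. The change was 0.50 against young (SE 0.19, adjusted p = 0.130) and 0.28 against Fluo-4 normal fibers (SE 0.19, adjusted p = 0.400). The second value passed with the replicate block (adjusted p = 0.0183), as the difference within pairs was 0.23, 0.30, 0.21 and 0.36. With the *Myh4* share as a covariate it was -0.03, and with TMM-type factors 0.05 (adjusted p = 0.939). *Gpx1* also shares 1232 exonic bases with the non-coding gene *Gm57050* on the other strand.

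*Gpx4* was at 886, 782, 845 and 913 TPM in young, 1085, 967, 971 and 1002 TPM in Fluo-4 normal and 1030, 1135, 1063 and 1236 TPM in Fluo-4 abnormal samples. Both aged groups were above the young samples without overlap. *Gpx4* rose by 0.38 in Fluo-4 abnormal against young fibers (SE 0.07, fold 1.30, adjusted p = 0.00809). This call held in 21 of 22 alternatives and was lost with TMM-type factors, at 0.20 and an adjusted p of 0.385. The change was 0.23 in Fluo-4 normal against young (adjusted p = 0.167) and 0.15 between the aged groups (adjusted p = 0.242), where TMM-type factors turned it to -0.08. A processed copy, *Gpx4-ps2*, matches 99.6% of 512 bases and was listed at 80.5 to 130.3 TPM, or 9.52 to 11.5% of *Gpx4* in each sample. Summed with it, *Gpx4* was at 946 ± 62.7, 1110 ± 63.0 and 1231 ± 104 TPM in the 3 groups, so the order of the groups was the same.

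*Nqo1*, a quinone reductase, showed the largest change of the 10 genes. The young samples were nearly equal, at 22.4, 22.8, 22.1 and 23.1 TPM, against 28.6, 30.5, 37.8 and 44.3 TPM in Fluo-4 normal and 45.3, 37.7, 36.2 and 54.3 TPM in Fluo-4 abnormal samples. All 8 aged samples were above all 4 young ones. *Nqo1* rose by 0.89 in Fluo-4 abnormal against young fibers (SE 0.14, fold 1.86, adjusted p = 0.00229), and this call held in all 22 alternatives. In Fluo-4 normal against young fibers it changed by 0.60 (SE 0.14, fold 1.52, adjusted p = 0.0624), which missed the threshold but passed in 7 of the 22 alternatives, with adjusted p-values from 0.0281 to 0.159. Between the aged groups it changed by 0.29 (95% interval -0.01 to 0.60, adjusted p = 0.218), or by 0.07 with TMM-type factors (adjusted p = 0.852). The difference was 0.64, 0.30, -0.06 and 0.29 in pairs 1 to 4, so the pairs did not all have the same direction.

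*Hmox1*, heme oxygenase 1, was not called in any comparison. It was at 9.66, 14.4, 16.4 and 12.5 TPM in young, 8.20, 15.1, 14.4 and 17.8 TPM in Fluo-4 normal and 12.4, 17.8, 13.6 and 23.7 TPM in Fluo-4 abnormal samples, and all groups overlapped. The changes of *Hmox1* in Fluo-4 abnormal fibers were 0.31 against young (95% interval -0.20 to 0.82, adjusted p = 0.482) and 0.27 against Fluo-4 normal (-0.24 to 0.78, adjusted p = 0.506). The second value was near the 0.29 of *Nqo1*. In pairs 1 to 4 it was 0.54, 0.23, -0.08 and 0.40, with the same signs as for *Nqo1*. With TMM-type factors the change between the aged groups was 0.06 for *Hmox1* (adjusted p = 0.917) and 0.07 for *Nqo1* (0.852). *Hmox1* and *Gpx1* are also strongly expressed in macrophages. The 9 macrophage markers summed to 1.06 to 2.31 TPM in young, 5.86 to 17.4 TPM in Fluo-4 normal and 8.07 to 12.3 TPM in Fluo-4 abnormal samples. Among them, *Lyz2* reached up to 13.8 TPM, *Cd68* 2.84, *C1qa* 0.68, *Csf1r* 0.385 and *Adgre1* 0.01 TPM. The 7 erythroid markers, mostly hemoglobins, summed to 33.1 to 121 TPM, 119 to 482 TPM and 44.4 to 236 TPM, with *Slc4a1* at 0 in all 12 samples. Their part in the values of *Hmox1* and *Gpx1* was not tested, and in bulk samples fewer cells of a type and less RNA per cell cannot be told apart.

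Counted over the members, 2 of 10 were called in Fluo-4 abnormal against Fluo-4 normal fibers, where 9.35% of all tested genes were called. Both were lower, against 1.99% of all genes (287) called lower and 7.36% (1062) called higher, a split that became 545 lower and 310 higher with TMM-type factors. With a filter of 5 TPM, 291 of 6348 genes were called lower and 1419 higher. The groups did not overlap for 3 members, against 14.0% of all genes. With the replicate block 4 members were called, of which 3 were lower, where 15.8% of all genes were called, 2.82% lower and 13.0% higher. In Fluo-4 abnormal against young fibers 4 of 10 members were called, where the share of all genes was 8.50%. Of these, 2 were lower and 2 higher, against 2.41% (348) and 6.09% (879) of all genes, or 693 lower and 451 higher with TMM-type factors, and 6 members did not overlap, against 16.2%. The filter of 5 TPM gave 379 lower and 962 higher of 6348 genes. In Fluo-4 normal against young fibers limma called 0 of 10 members, against 1.15% of all genes. The groups did not overlap for 3 members (*Cat*, *Gpx4* and *Nqo1*), against 7.98% of all genes. The same 3 had an unadjusted limma p-value under 0.05, as did 1865 of all 14429 genes. With 10 members these counts are small and are given as a description.

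In the Fluo-4 abnormal fibers the 2 sets of enzymes had medians of opposite sign. The median change of the 4 mitochondrial genes was -0.24 against Fluo-4 normal fibers, and that of the 5 non-mitochondrial genes was 0.27, a difference of -0.51. With TMM-type factors these medians were -0.46 and 0.05, so the non-mitochondrial one was then close to 0. Without these factors, the 6348 genes kept by the filter of 5 TPM had a median of 0.20 between the aged groups. Against young fibers the medians of the 2 sets were -0.22 and 0.31, and in Fluo-4 normal against young they were 0.01 and 0.23. Summed TPM of the mitochondrial genes was 931 ± 21.9 in young, 941 ± 46.1 in Fluo-4 normal and 794 ± 45.1 in Fluo-4 abnormal fibers, and the highest abnormal sample, 836 TPM, was below the lowest of the other 8, 897 TPM. The non-mitochondrial sum was 349 ± 24.2, 388 ± 46.9 and 440.3 ± 68.6 TPM, with overlapping aged groups. All 10 genes together summed to 2137 ± 64.8, 2335 ± 85.8 and 2351 ± 164 TPM, so the total of the aged groups differed by less than the spread between samples.

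**Figure D3:**
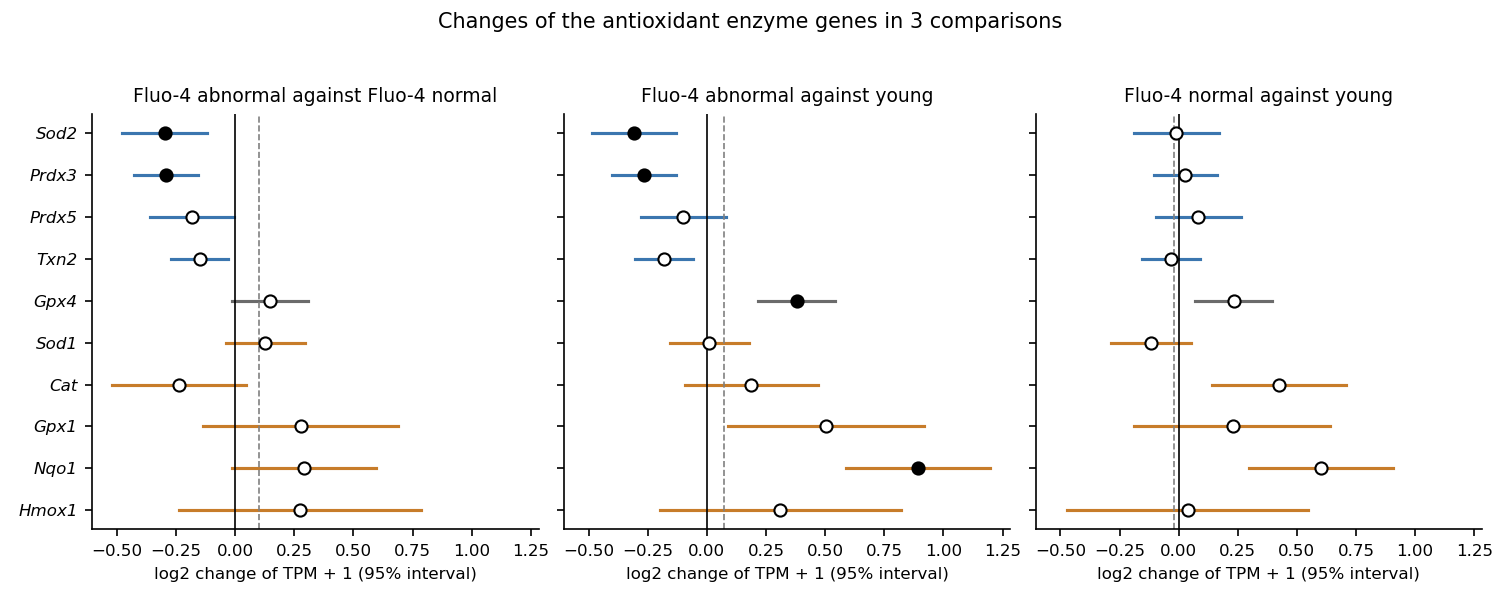
Log2 change of each gene in 3 comparisons, with its 95% interval from limma; black points passed an adjusted p of 0.05, blue bars are mitochondrial, orange bars non-mitochondrial and the grey bar *Gpx4*, and the dashed line is the median of all 14429 genes. *Sod2* and *Prdx3* are black to the left of 0 in both comparisons of the Fluo-4 abnormal fibers, and *Gpx4* and *Nqo1* are black to the right against young fibers.

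The genes whose levels went most alike with each member over the 12 samples were sought among 5984 genes of at least 5 TPM. Those of *Prdx3* were *Ckmt2*, the mitochondrial creatine kinase (Pearson r = 0.97), and *Uqcrfs1*, a subunit of complex III (0.96). *Sod2* went with *Fh1*, the fumarase of the citric acid cycle, and *Ndufs4*, a subunit of complex I (0.94 and 0.94), and *Txn2* with *Uqcrh* of complex III and *Ndufs3* of complex I (0.95 and 0.93). *Nqo1* went with *Poglut1* (0.95) and *Srxn1* (0.94), *Gpx4* with *Chmp2a* (0.95) and *Hmox1* with *Ftl1-ps1* (0.92), which is 99.6% identical to the ferritin light chain gene *Ftl1*. Among the members, r was 0.90 for *Prdx3* and *Txn2*, 0.80 for *Sod2* and *Prdx3* and 0.81 for *Gpx4* and *Nqo1*, and -0.71 for *Sod2* and *Nqo1*. The 12 samples share their group differences and the fixed TPM total, so these values describe likeness and carry no test.

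The partners of the members in the thioredoxin system were read next. *Prdx1*, the main cytosolic peroxiredoxin, had group means of 385, 385 and 392 TPM and changed by 0.02 between the aged groups (adjusted p = 0.896). The TPM ratio of *Prdx3* to *Prdx1* was 0.747 ± 0.039, 0.764 ± 0.056 and 0.614 ± 0.031 in young, Fluo-4 normal and Fluo-4 abnormal fibers, and the Fluo-4 abnormal samples were below the other 8. *Prdx2*, *Prdx4*, *Prdx6*, *Txn1* and the reductases *Txnrd1* and *Txnrd2* were not called in any comparison of the main fit. Their levels were not all equal between groups. In Fluo-4 abnormal against young fibers *Prdx4* changed by -0.49 (SE 0.25) and *Txnrd1* by 0.25 (SE 0.155). *Prdx6* passed there with TMM-type factors (-0.24, adjusted p = 0.0434). Of the 15 tested genes of this list, 1 was called higher in Fluo-4 abnormal against Fluo-4 normal fibers (*Txnl1*, 0.39, adjusted p = 0.0280, but 0.319 with TMM-type factors), and the list median was 0.09, against 0.10 for all genes. *Srxn1*, which restores over-oxidised peroxiredoxins and is an NRF2 target, stood out against young. It was at 11.4, 12.9, 11.8 and 11.1 TPM in young, 22.5, 17.6, 20.4 and 25.9 TPM in Fluo-4 normal and 34.5, 28.4, 20.6 and 35.0 TPM in Fluo-4 abnormal samples. All aged samples were above the young ones. *Srxn1* rose by 0.81 in Fluo-4 normal (adjusted p = 0.0264) and by 1.23 in Fluo-4 abnormal fibers (adjusted p = 0.000534), comparisons that share the young samples. Between the aged groups it changed by 0.42 (adjusted p = 0.109, and 0.0234 with the replicate block). With TMM-type factors this change was 0.20 (adjusted p = 0.592).

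The other redox genes were read from 12 lists with 119 tested genes. In Fluo-4 abnormal against Fluo-4 normal fibers, 13 of the 119 (10.9%) were called higher and 5 (4.20%) lower. Of all genes, 7.36% were called higher and 1.99% lower, and both medians were 0.10. With a filter of 5 TPM, 1419 of 6348 genes were called higher and 291 lower, and their median was 0.20. With TMM-type factors the split of the 119 turned to 2 higher and 9 lower, against 2.15% and 3.78% of all genes. With the replicate block 24 of the 119 were higher and 8 lower, against 13.0% and 2.82%. Of 26 glutathione genes, 4 were higher and 3 lower (median 0.11). *Gclm*, the modifier subunit of the first enzyme of glutathione synthesis, was at 10.2, 15.7, 15.4 and 14.1 TPM in Fluo-4 normal and 21.9, 20.7, 20.6 and 22.9 TPM in Fluo-4 abnormal samples. The groups were apart, and *Gclm* rose by 0.62 (adjusted p = 0.0145, and 0.0345 with TMM-type factors). The transferases *Gstt1* (0.81, adjusted p = 0.0204) and *Gstm1* (0.56, adjusted p = 0.0163) were also higher, but both calls were lost with TMM-type factors (0.0756 and 0.120). *Glrx5*, the mitochondrial glutaredoxin that serves iron-sulfur clusters, was lower (-0.29, adjusted p = 0.0274). Outside the rule for naming genes and named after their values were seen, *Gstp1* was higher (0.29) and the membrane-bound *Mgst1* and *Mgst3* were lower (-1.28 and -0.50). With TMM-type factors *Gstp1* was not called (0.07, adjusted p = 0.708), and *Mgst1* and *Mgst3* still were (0.0117 and 0.00458). *Gstp2* matches *Gstp1* at 97.9% of 707 bases and was listed at 119 to 222 TPM, so reads of *Gstp1* may be split.

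**Figure D4:**
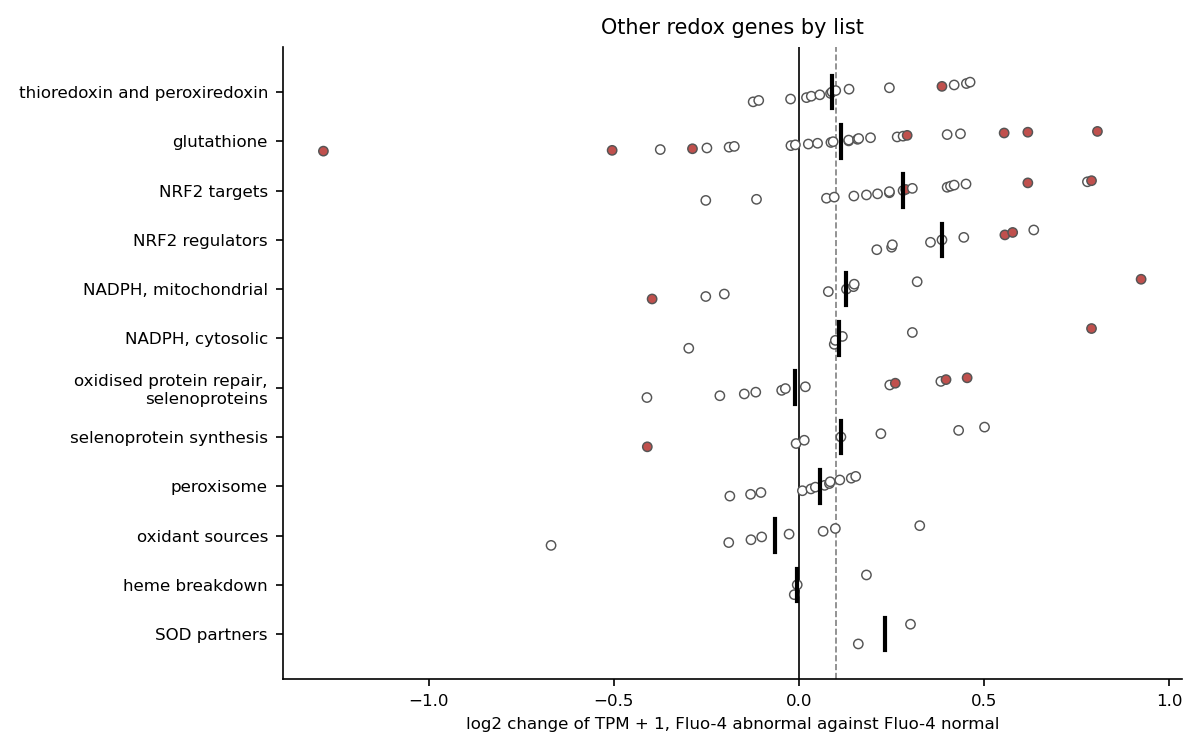
Log2 change of each of the 119 other redox genes in Fluo-4 abnormal against Fluo-4 normal fibers, by list (genes of 2 lists are drawn in both); red points passed an adjusted p of 0.05, the thick bar is the list median and the dashed line the median of all genes. The medians of the NRF2 targets (0.28) and NRF2 regulators (0.39) lie furthest to the right of the dashed line (0.10).

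Of 19 NRF2 targets, 3 were higher and 0 lower between the aged groups, with a median of 0.28 (0.08 with TMM-type factors). *Me1*, the malic enzyme that makes NADPH in the cytosol, rose by 0.79 (adjusted p = 0.00787) and *Fth1*, the ferritin heavy chain, by 0.29 (adjusted p = 0.0197), the latter at 0.06 and an adjusted p of 0.835 with TMM-type factors. *Me1* has a processed copy, *Gm7329*, that matches 99.0% of 210 bases and was listed at 6.72 to 27.9 TPM, so part of its reads may be split. *Gclm* was the third. With the replicate block 8 of the 19 were called higher, where 13.0% of all genes were. With TMM-type factors 2 of the 19 were, where 2.15% of all genes were. Of the 9 NRF2 regulators, *Sqstm1*, the autophagy receptor that binds KEAP1 (0.56, adjusted p = 0.0204), and *Mafg*, the partner of NRF2 on DNA (0.58, adjusted p = 0.0360), were called, and the median was 0.39. Neither call remained with TMM-type factors (0.113 and 0.105), where 0 of the 9 were called and the median was 0.22. With the replicate block 6 of the 9 were called higher. *Nfe2l2* itself changed by 0.25 (adjusted p = 0.319), *Keap1* by 0.25 (adjusted p = 0.243, and 0.0416 with the replicate block) and *Bach1*, a repressor at the same sites, by 0.21 (adjusted p = 0.546). With TMM-type factors these changes were 0.03, 0.03 and 0.07 (adjusted p = 0.915, 0.91 and 0.891).

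The sources of NADPH differed between enzymes of the same place. In mitochondria, *Me3* fell by 0.40 (adjusted p = 0.00295) and the folate enzyme *Mthfd2* rose by 0.93 from a low level of 4.25 to 9.30 TPM in group means (adjusted p = 0.0294). The *Mthfd2* call held in 14 of 22 alternatives and was lost with TMM-type factors, at 0.73 and an adjusted p of 0.0806. *Nnt*, the gene of the proton-driven transhydrogenase, was low, at 5.59 TPM in Fluo-4 normal and 7.17 TPM in Fluo-4 abnormal fibers, and changed by 0.32 (adjusted p = 0.435). Whether its transcripts give a working enzyme in mice of this strain was not tested. The 9 mitochondrial NADPH genes had a median of 0.13, and the 6 cytosolic ones, of which only *Me1* was called, 0.11. *Gsr*, the glutathione reductase that spends NADPH, was at 15.3, 18.2, 18.3 and 22.2 TPM in Fluo-4 normal and 23.3, 27.8, 23.6 and 23.7 TPM in Fluo-4 abnormal samples. It just missed the test between the aged groups (0.40, adjusted p = 0.0509). There it passed with the replicate block (0.0341) but not with TMM-type factors (0.18, adjusted p = 0.421). Against young it rose by 0.47 (adjusted p = 0.0271, and 0.116 with TMM-type factors).

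Among 12 genes of oxidised protein repair and other selenoproteins, 3 were higher and 0 lower, with a median of -0.01. They were *Park7* (0.45, adjusted p = 0.00295), which codes for the redox-sensing protein DJ-1, the methionine sulfoxide reductase *Msrb3* (0.40, adjusted p = 0.0320) and *Selenok* (0.26, adjusted p = 0.0395), a selenoprotein of the endoplasmic reticulum, and none of the 3 was called with TMM-type factors. The list then had 0 higher and 2 lower genes, *Msrb2* (-0.62, adjusted p = 0.0137) and *Oxr1* (-0.37, adjusted p = 0.0328), named after their values were seen, and a median of -0.23. Of 7 genes of selenoprotein synthesis, which glutathione peroxidases need, *Pstk* fell by 0.41 (adjusted p = 0.0155), with a list median of 0.11. It shares 4652 exonic bases with *Ikzf5* on the other strand. No gene was called between the aged groups among 8 oxidant sources (median -0.06), 3 genes of heme breakdown (-0.004) and 2 partners of the dismutases (0.23).

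**Figure D5:**
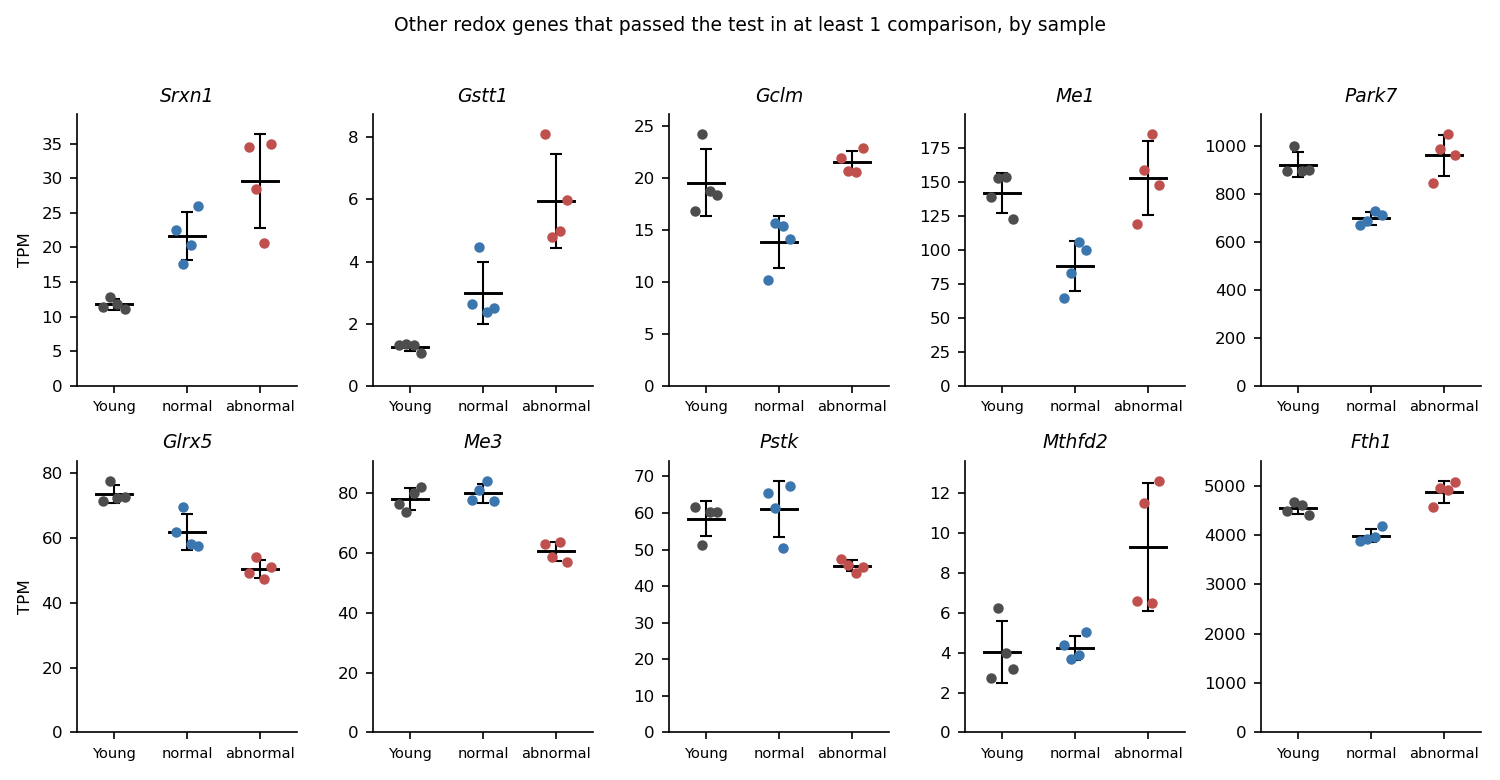
TPM (linear axis from 0) of 10 other redox genes in the 12 samples, with mean and SD (n = 4). *Srxn1* and *Gstt1* are lowest in young fibers, *Gclm*, *Me1*, *Park7* and *Fth1* are lowest in the Fluo-4 normal fibers, and *Glrx5*, *Me3* and *Pstk* are lowest in the Fluo-4 abnormal fibers.

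Against young fibers several of the named redox genes were sorted, after their values were seen, into 4 courses. *Me1* was at 139, 153, 154 and 123 TPM in young, 64.6, 82.8, 106 and 99.6 TPM in Fluo-4 normal and 119, 159, 185 and 147 TPM in Fluo-4 abnormal samples. The Fluo-4 normal samples were below all others, and *Me1* fell by 0.70 in them against young (adjusted p = 0.0482), whereas the Fluo-4 abnormal samples overlapped with young (0.09, adjusted p = 0.766). The call of *Me1* in Fluo-4 normal against young held in 9 of 22 alternatives. *Park7* likewise fell by 0.40 in Fluo-4 normal fibers (adjusted p = 0.0202, and 0.0686 with TMM-type factors) and differed by 0.06 in Fluo-4 abnormal fibers (adjusted p = 0.689). *Gclm* had the same order of means, 19.5, 13.8 and 21.5 TPM, with -0.47 in Fluo-4 normal against young fibers (adjusted p = 0.120). A second course was that of *Srxn1*, *Nqo1* and *Gstt1*, in which both aged groups lay above young. *Gstt1* was at 1.07 to 1.35 TPM in young, 2.37 to 4.47 TPM in Fluo-4 normal and 4.79 to 8.09 TPM in Fluo-4 abnormal samples, and it rose by 1.60 in Fluo-4 abnormal against young fibers (adjusted p = 0.000383). In the third, *Glrx5* fell by 0.54 (adjusted p = 0.000848), *Me3* by 0.36 (adjusted p = 0.00415) and *Pstk* by 0.35 (adjusted p = 0.0326) in Fluo-4 abnormal against young fibers. The fourth course was that of *Sqstm1*, *Txnl1*, *Gsr*, *Mthfd2* and *Selenok*, which rose in Fluo-4 abnormal against young fibers (0.52, 0.38, 0.47, 1.03 and 0.27) and changed by -0.04 to 0.10 in Fluo-4 normal against young fibers. Of these 5, only *Mthfd2* was called against young with TMM-type factors. In all, 11 of 119 genes (9.24%) were called higher and 8 (6.72%) lower in Fluo-4 abnormal against young fibers, against 6.09% and 2.41% of all genes. With a filter of 5 TPM, 962 of 6348 genes were called higher there and 379 lower. In Fluo-4 normal against young fibers 2 of the 119 were higher and 2 lower (1.68% each), against 0.561% and 0.589% of all genes. The fourth gene called in the latter, after *Srxn1*, *Me1* and *Park7*, was *Maob*, a mitochondrial amine oxidase that releases hydrogen peroxide, named after its values were seen. *Maob* rose by 0.89 in Fluo-4 normal (adjusted p = 0.00445) and by 0.70 in Fluo-4 abnormal fibers (adjusted p = 0.00469).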

How the data were processed

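The authors isolated RNA from EDL myofibers with TRIzol, made libraries from 10 ng of it with the SMART-Seq v4 kit, which keeps no strand, mapped reads to GRCm39 (mm39) with DRAGEN 4.3 and deposited TPM values, 1 file for each of 12 samples (4 per group). The annotation release is not given in the sources used here. As TPM keep no read depth, their counting precision is unknown.

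Lines with the same symbol were summed. Protein-coding and mitochondrially-encoded genes with a group mean of at least 0.02 TPM were fitted on log2(TPM + 1) with limma 3.58.1 (R 4.3.3, variance trend, all 12 samples in 1 fit), with Benjamini-Hochberg adjustment over 14429 genes. On simulated data with 14260 genes the fit recovered 95% of 2-fold changes between the aged groups. These changes were put only into 200 genes of higher level, with noise drawn independently for each sample and without pairs. Smaller changes, such as those of the members between the aged groups, were not simulated, so the power for them is unknown. Copies were sought with BLAST 2.17.0, gene positions taken from GENCODE and promoter windows from RefSeq. Tables and plots used Python 3.11.15.

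The members and gene lists were chosen with earlier results of these data known. Named were the 10 members, 14 partner genes, up to 4 called genes per redox list and, per member, the 2 genes most alike by Pearson r. Alternatives were pseudocount 0.1, no filter or a filter of 5 TPM, scaling without mitochondrially-encoded genes, TMM-type factors (trimming 30% of ratios and 5% of levels), all annotated genes, only the 2 groups compared, a replicate block, the *Myh4* share (of *Myh1*, *Myh2*, *Myh4* and *Myh7*) as a covariate, both together, and leaving out each sample. In 3035 genes of at least 20 TPM, same-numbered Fluo-4 abnormal and Fluo-4 normal samples deviated together from the mean of their group (r = 0.55, 0.48, 0.48 and 0.34, with -0.47 to 0.29 for unlike numbers). These numbers, given by the labels without saying what they mark, were therefore taken as pairs. Samples correlated at 0.958 to 0.993, and none was a duplicate.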

Additional observations from a re-analysis of the deposited data

Results flagged for a closer look

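In 14 of 117 groups of 4 samples (39 named genes in 3 groups), 1 sample stood far from the other 3 by Dixon's criterion, where chance gives about 1 in 20. Only 1 of these was in a member, *Gpx1*, at 114.4 TPM in young sample 1 against 134.2 to 138.2 TPM in the other three.

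Among the partners, Fluo-4 normal sample 1 stood apart 3 times, with *Txnrd1* at 28.67 TPM and *Keap1* at 28.99 TPM, both the lowest of 4, and *Prdx1* at 417.8 TPM, the highest. Fluo-4 normal sample 2 was the highest for *Ccs*, at 18.48 TPM, and for *Gstt1*, at 4.473 TPM. Young sample 4 was the highest for *Txn1*, at 72.92 TPM, and the lowest for *Gstt1*, at 1.068 TPM. Young sample 2 was the highest for *Sqstm1*, at 583.4 TPM, and *Park7*, at 999.7 TPM, and the lowest for *Pstk*, at 51.36 TPM. In the Fluo-4 abnormal fibers, sample 4 was the highest for *Txn1*, at 93.09 TPM, sample 2 the highest for *Gsr*, at 27.84 TPM, and sample 3 the lowest for *Prdx2*, at 125.4 TPM.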

How the results depend on the processing

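The main limits are the unknown depth, the TPM scale, which fixes each sample's total, and 4 samples per group. Of 660 values of single members under the alternatives, 589 kept their direction and side of the threshold, 18 newly passed, 30 no longer passed and 23 changed sign, none of them called. The count of members called in Fluo-4 abnormal against Fluo-4 normal fibers (2) was 4 with TMM-type factors and with the replicate block, 1 with all annotated genes and with only the 2 groups compared, and 0 with the *Myh4* share as a covariate or with it and the replicate block. Without 1 sample it was 1 to 3. Against young fibers the count for Fluo-4 abnormal fibers (4) was 2 with the *Myh4* share and 2 to 5 without 1 sample. With the replicate block it was 5, as *Gpx1* then passed at 0.0453, although same-numbered young and aged samples were not paired (correlations of -0.13 to 0.27). The count for Fluo-4 normal against young (0) was 1, through *Nqo1*, with pseudocount 0.1, a filter of 5 TPM, TMM-type factors, scaling without mitochondrially-encoded genes and the replicate block, and 0 to 1 without 1 sample. Signs turned between the aged groups with TMM-type factors for *Sod1* (-0.10) and *Gpx4* (-0.08), with the *Myh4* share for *Gpx1* (-0.032) and with both block and share for *Sod1* (-0.009). In Fluo-4 abnormal against young, *Sod1* turned to -0.16 with TMM-type factors, -0.019 without the mitochondrially-encoded genes, -0.02 with block and share and -0.051 to 0.065 without 1 sample. In Fluo-4 normal against young, *Sod2* turned to 0.041 with TMM-type factors, 0.02 without the mitochondrially-encoded genes and -0.074 to 0.031 without 1 sample, *Txn2* to 0.02 with TMM-type factors, *Prdx3* to -0.002 with the *Myh4* share, -0.016 with block and share and -0.001 to 0.056 without 1 sample, and *Hmox1* to -0.10 with the share and -0.093 to 0.253 without 1 sample. The causes were not tested. Of all genes, 1349 were called between the aged groups, and 855 with TMM-type factors, 748 with only the 2 groups compared, 2281 with the replicate block, 820 with the *Myh4* share, 22 with both and 665 without Fluo-4 abnormal 2. In Fluo-4 abnormal against young 1227 were called, and 715, 604, 742 and 788 without young 1, young 4, Fluo-4 abnormal 2 and Fluo-4 abnormal 4. In Fluo-4 normal against young 166 were called, and 320 with the replicate block, 266 with a filter of 5 TPM and 55 to 103 without any of young 1 to 3 or Fluo-4 normal 2 to 4. The difference between the medians of mitochondrial and non-mitochondrial members kept its sign in all alternatives, from -0.635 to -0.334 between the aged groups.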

Other observations

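Further redox genes passed the test in Fluo-4 abnormal against young fibers and were named after their values were seen. Lower were *Gpx8*, a peroxidase of the endoplasmic reticulum (-1.0 on the log2 scale, adjusted p = 0.0147), *Msrb2*, the mitochondrial methionine sulfoxide reductase (-0.65, adjusted p = 0.00799), *Ggct* of glutathione breakdown (-0.62, adjusted p = 0.046), *Glrx*, the cytosolic glutaredoxin (-0.36, adjusted p = 0.0258), and *Glud1*, the mitochondrial glutamate dehydrogenase (-0.35, adjusted p = 0.00486). Higher were the glutathione transferases *Gstm2* (0.89, adjusted p = 0.00691) and *Gstk1* (0.31, adjusted p = 0.0491) and *Pgd* of the pentose phosphate pathway (0.57, adjusted p = 0.0342). With TMM-type factors *Gstk1* (0.14, adjusted p = 0.523) and *Pgd* (0.43, adjusted p = 0.0615) were not called. In Fluo-4 normal against young fibers the changes of these 8 genes had the same sign and none was called, with *Gpx8* closest at -0.98 (adjusted p = 0.0533). In the direct comparison of the aged groups limma called none of the 8 either, with adjusted p-values of 0.0635 to 0.975, whereas with TMM-type factors *Msrb2* (-0.62, 0.0137), *Glud1* (-0.42, 0.00319) and *Glrx* (-0.47, 0.0423) passed.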
